A study of Mus musculus with 8 samples.

Results

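Expression of 8 genes of the complement system (C3, C4b, C1s1, C1ra, Cfb, Serping1, Cd55 and Cd59a) was followed in pancreatic stellate cells (PSCs), fibroblast-like cells resident in the pancreas. The genes were chosen by symbol, and 7 of the 8 were found among the 12160 genes of the count table; Cd55 was not analysed here. All samples were an immortalized mouse PSC line, embedded in growth factor reduced Matrigel and kept for 4 days in DMEM with serum before the medium was changed for another 4 days. The new medium had been conditioned by KPC organoids (mouse pancreatic cancer cells grown in 3D) carrying an shRNA against Brca2 (shBrca2-CM, 3 domes), by KPC organoids carrying a non-targeting control shRNA (shControl-CM, 3 domes), or was the control, here called growth medium (2 domes). For the control the sample titles name DMEM and the recorded treatment names medium of the PSCs themselves, and the study uses both names. Organoid media were collected with less serum than the growth medium contained, so serum and organoid products cannot be told apart in comparisons with growth medium. As 1 cell line was used, p-values measure the spread between domes only. The edgeR p-values given below also draw on the spread of other genes.

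Complement is a system of secreted proteases, opsonins and inhibitors, and fibroblasts are one of its local sources outside the liver. In the classical route the proteases C1r and C1s, bound to C1q, cleave C4 and C2. In the alternative route factor B, encoded by Cfb, pairs with cleaved C3 and is stabilised by properdin, and both routes meet at C3. C1 inhibitor, encoded by Serping1, blocks C1r, C1s and the lectin-route proteases, while CD55 and CD59 protect host membranes. Liver and stromal cells are known to raise C3 and factor B in the acute phase response.

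RNA was measured by MARS-seq, which reads the 3′ ends of mRNA. The shBrca2-CM libraries held 655996 to 1095534 counts, those of shControl-CM 1093609 to 1624392, and the growth medium libraries 4623846 and 5476988, so genes of low expression were measured less well in conditioned medium. Levels are given as CPM, the usual count unit relative to library size, here normalised by TMM over all 8 libraries. A gene was called differentially expressed (DE) if its edgeR p-value, adjusted over all genes tested, was below 0.1, its log2 fold change exceeded 0.5 in size and its mean normalised count exceeded 5. SE stands for the standard error of a log2 fold change. Between the conditioned media 3.13% of all genes were called (1.58% higher and 1.55% lower with shBrca2-CM), against 37.1% for shControl-CM and 37.8% for shBrca2-CM compared with growth medium. When TMM was replaced by total counts, 67.6% of the calls between the conditioned media were higher with shBrca2-CM, against 50.4% with TMM. All 10 fibroblast markers examined had counts, but their sum differed with the medium, at 3048 to 3151 CPM with shBrca2-CM, 4059 to 4385 CPM with shControl-CM and 5043 to 6007 CPM in growth medium. The markers did not move together: Vim was at 3396 and 4115 CPM in growth medium against 243 to 749 CPM in conditioned medium, whereas Dcn was at 105 and 80.0 CPM in growth medium against 910 to 2257 CPM in conditioned medium. Col1a1 and Col1a2 were called lower, and Dcn, Thy1 and Pdpn higher, with both conditioned media against growth medium. Of 7 macrophage markers, 4 were measured (Cd68, Csf1r, Lyz2 and Fcer1g), and they summed to 13.0 to 29.3 CPM with shBrca2-CM, 24.3 to 40.1 CPM with shControl-CM and 10.7 to 12.2 CPM in growth medium. Of 7 epithelial markers, 3 were measured (Krt18, Krt19 and Muc1), and they summed to 59.3 to 94.1, 57.7 to 70.6 and 37.0 to 41.7 CPM, respectively. These did not move together either: Krt18 and Muc1 were called higher and Krt19 lower with both conditioned media against growth medium, and Krt19 was called higher with shBrca2-CM than with shControl-CM (log2 fold change 2.12, edgeR adjusted p = 0.0632). The part of these shifts in the results below was not tested, and in bulk RNA fewer cells of a type and less RNA per cell cannot be told apart.

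Conditioned medium raised C3, Cfb and Serping1 over growth medium whichever organoids had made it. For C3 the difference between the conditioned media was not called. Cfb and Serping1 were lower with shBrca2-CM than with shControl-CM, by 2.13-fold and 1.51-fold, whereas C4b was 2.24-fold higher. C1ra and C1s1 were not called in any comparison. Of the 7 genes measured, 3 were called between the conditioned media, 1 higher and 2 lower with shBrca2-CM, where 1.58% of all genes were called higher and 1.55% lower. With shControl-CM against growth medium, 3 were called higher and 0 lower, where 18.2% of all genes were called higher and 18.9% lower. With shBrca2-CM 4 were called higher and 0 lower, where 18.6% of all genes were called higher and 19.2% lower. The median log2 fold change of the 7 genes against growth medium was 0.44 with shControl-CM and 1.49 with shBrca2-CM. Over all genes tested it was -0.10 and -0.05. Between the conditioned media the median of the 7 was 0.04, beside 0.03 over all genes. Against growth medium these medians are single values, of C4b with shControl-CM and of C3 with shBrca2-CM, and do not rank the media. C3, Cfb and Serping1 each rose more with shControl-CM. C4b rose more with shBrca2-CM, and C1ra, C1s1 and Cd59a, not called, also had higher values with it. The comparisons with growth medium share the same 2 control domes.

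**Figure D1:**
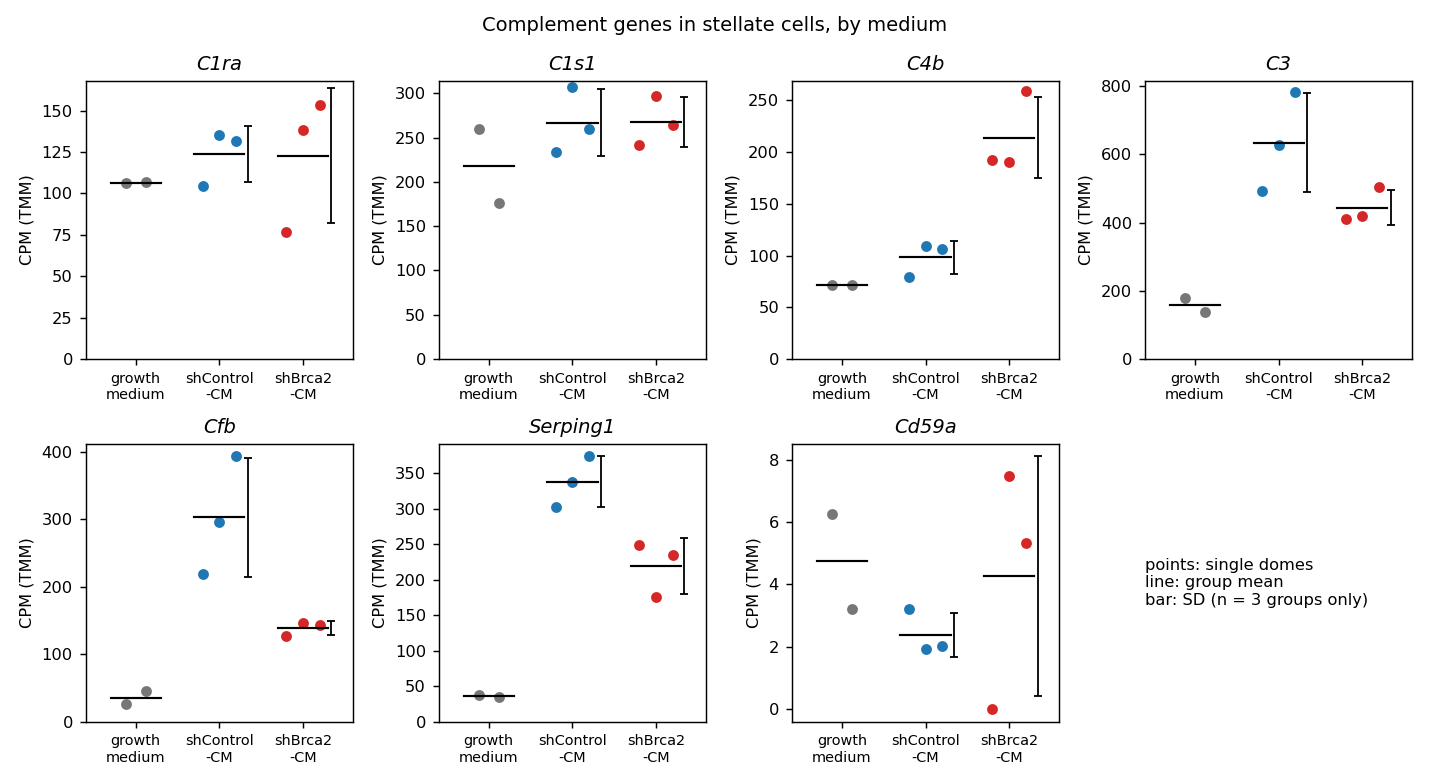
Normalised expression (CPM, TMM over all 8 libraries) of the 7 complement genes in every dome, with the group mean as a line and the SD as a bar for groups of 3. C3, Cfb and Serping1 lie above growth medium in all 6 conditioned medium domes, C4b is highest in the 3 shBrca2-CM domes (190 to 259 CPM), and C1ra and C1s1 overlap between media.

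Among the early proteases of the classical route, C1ra was at 76.7, 138 and 154 CPM in the 3 shBrca2-CM domes, 104, 135 and 132 CPM in the 3 shControl-CM domes, and 106 and 107 CPM in growth medium. The 3 groups overlapped, and the lowest and the highest dome both had shBrca2-CM. The shBrca2-CM to shControl-CM log2 fold change was 0.04 (95% interval -0.44 to 0.51, edgeR adjusted p = 0.971). C1s1, the substrate-cleaving partner of C1ra, was at 242, 297 and 265 CPM with shBrca2-CM, 233, 307 and 260 CPM with shControl-CM, against 259 and 176 CPM in growth medium. Both conditioned media gave nearly the same range for C1s1, and its log2 fold change between them was 0.04 (95% interval -0.28 to 0.35, edgeR adjusted p = 0.949). Set against growth medium, the log2 fold change of C1s1 was 0.28 with shControl-CM (95% interval -0.16 to 0.73, edgeR adjusted p = 0.303) and 0.30 with shBrca2-CM (95% interval -0.0034 to 0.60, edgeR adjusted p = 0.111). With each library left out, the value with shBrca2-CM ranged from 0.06 to 0.61. The highest was that without growth medium replicate 1, the dome with the higher C1s1. C1ra had log2 fold changes of 0.21 (95% interval -0.18 to 0.59) and 0.24 (95% interval -0.10 to 0.57) in these comparisons (edgeR adjusted p = 0.382 and 0.275). C1ra and C1s1 are neighbours on chromosome 6 (C1ra at 124512621 to 124523440 and C1s1 at 124530344 to 124542392, GRCm38, 6.9 kb apart). C1s1 also has a relative, C1s2, whose last 400 transcript bases are 69.5% identical with a shared run of 100 bases, so reads in that run cannot be assigned to either gene.

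C4b, which encodes complement C4, the substrate of C1s, had the opposite order of conditioned media to Cfb and Serping1. It was at 192, 190 and 259 CPM with shBrca2-CM, 79.4, 109 and 106 CPM with shControl-CM, and 71.6 CPM in both growth medium domes. Every shBrca2-CM dome was above every other dome, and the shControl-CM domes lay between the other media. The mean was 214 ± 39.2 CPM (SD, n = 3) with shBrca2-CM and 98.2 ± 16.3 CPM (SD, n = 3) with shControl-CM. C4b rose by 1.16 on the log2 scale between the conditioned media (SE 0.17, edgeR adjusted p = 0.00356), and this stayed between 1.004 and 1.24 when each library was left out. Over growth medium shBrca2-CM raised it by 1.59 (SE 0.16, edgeR adjusted p = 1.25e-12). With shControl-CM the log2 fold change of C4b was 0.44 (95% interval 0.03 to 0.86, edgeR adjusted p = 0.0952), under the fold threshold; it was called without shControl-CM replicate 1 (0.59, edgeR adjusted p = 0.0204) and after thinning all libraries to the smallest total (0.60, edgeR adjusted p = 0.0982). C4a, listed as a transcribed pseudogene 65.2 kb from C4b, is 97.8% identical to it over the last 400 transcript bases with a shared run of 131 bases, and how reads that fit both were counted is not stated. C4a itself had 2 to 9 counts in each conditioned medium library and 9 and 13 in growth medium, against 113 to 412 for C4b.

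C3, the protein at which all routes converge, was raised by both conditioned media. It was at 411, 418 and 504 CPM with shBrca2-CM, 492, 627 and 783 CPM with shControl-CM, against 178 and 139 CPM in growth medium. All 6 conditioned medium domes were above both growth medium domes, while the ranges of the conditioned media overlapped. The means were 444 ± 51.9 CPM with shBrca2-CM and 634 ± 146 CPM with shControl-CM (SD, n = 3 each). Against growth medium the log2 fold change of C3 was 1.99 with shControl-CM (SE 0.22, edgeR adjusted p = 1.71e-04) and 1.49 with shBrca2-CM (SE 0.15, edgeR adjusted p = 1.82e-12). In the direct comparison of the conditioned media it was -0.48 (95% interval -0.84 to -0.13, edgeR adjusted p = 0.199), which was not called. Without shControl-CM replicate 1, the shControl-CM dome with the lowest C3, it was called (-0.66, edgeR adjusted p = 0.0118).

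Cfb, which encodes the protease of the alternative route, had the larger fold of the 2 members called lower with shBrca2-CM than with shControl-CM. It was at 127, 146 and 144 CPM with shBrca2-CM, 218, 296 and 393 CPM with shControl-CM, against 26.6 and 45.1 CPM in growth medium. No group overlapped another, and shBrca2-CM lay between growth medium and shControl-CM. The means were 139 ± 10.1 CPM with shBrca2-CM and 302 ± 87.6 CPM with shControl-CM (SD, n = 3 each). Relative to growth medium, Cfb rose on the log2 scale by 3.07 with shControl-CM (SE 0.30, edgeR adjusted p = 8.72e-05) and by 1.97 with shBrca2-CM (SE 0.18, edgeR adjusted p = 7.89e-14). The shBrca2-CM to shControl-CM log2 fold change of Cfb was -1.09 (SE 0.19, edgeR adjusted p = 0.0109), and it stayed between -1.31 and -0.87 when each library was left out. The call was kept, but near the threshold without shBrca2-CM replicate 1, 2 or 3 (edgeR adjusted p = 0.0933, 0.0935 and 0.0865). Without shControl-CM replicate 1, 2 or 3 the edgeR adjusted p was 1.20e-04, 0.0571 and 0.00241. In the annotation Cfb overlaps Gm20547, a protein-coding model on the same strand, and Nelfe on the other strand, so reads there may be shared or lost.

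Serping1, the C1 inhibitor gene, rose with both conditioned media and was called lower with shBrca2-CM than with shControl-CM. Levels were 249, 175 and 234 CPM with shBrca2-CM, 303, 337 and 375 CPM with shControl-CM, against 37.2 and 35.3 CPM in growth medium. No group overlapped another, and the order of the media was that of Cfb. Serping1 rose by 3.21 on the log2 scale with shControl-CM (SE 0.18, edgeR adjusted p = 2.22e-06) and by 2.6 with shBrca2-CM (SE 0.17, edgeR adjusted p = 4.62e-20), which is 9.28-fold and 6.06-fold. Comparing the conditioned media, its log2 fold change was -0.60 (SE 0.15, edgeR adjusted p = 0.0791), from means of 220 ± 38.9 and 338 ± 35.9 CPM (SD, n = 3 each). This call was lost without shBrca2-CM replicate 1, 2 or 3 (edgeR adjusted p = 0.132, 0.358 and 0.224), without shControl-CM replicate 2 (0.245), and when TMM was replaced by total counts (-0.48, edgeR adjusted p = 0.136), while the log2 fold change stayed between -0.70 and -0.46.

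Cd59a, which encodes a membrane inhibitor of the terminal complex, was close to the limit of detection. It had 0, 6 and 6 counts with shBrca2-CM, 5, 2 and 3 counts with shControl-CM, and 36 and 15 counts in the deeper growth medium libraries. A count of 3 corresponds to 1.92 to 4.34 CPM in the conditioned medium libraries, about the level of Cd59a itself (4.26 ± 3.84 CPM and 2.39 ± 0.71 CPM, SD, n = 3 each), so a difference was not detectable at this depth. The shBrca2-CM to shControl-CM log2 fold change of Cd59a was 0.87 (95% interval -0.79 to 2.54, edgeR adjusted p = 0.698), and against growth medium the values were -0.97 with shControl-CM (95% interval -2.19 to 0.25) and -0.09 with shBrca2-CM (95% interval -1.17 to 0.99).

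**Figure D2:**
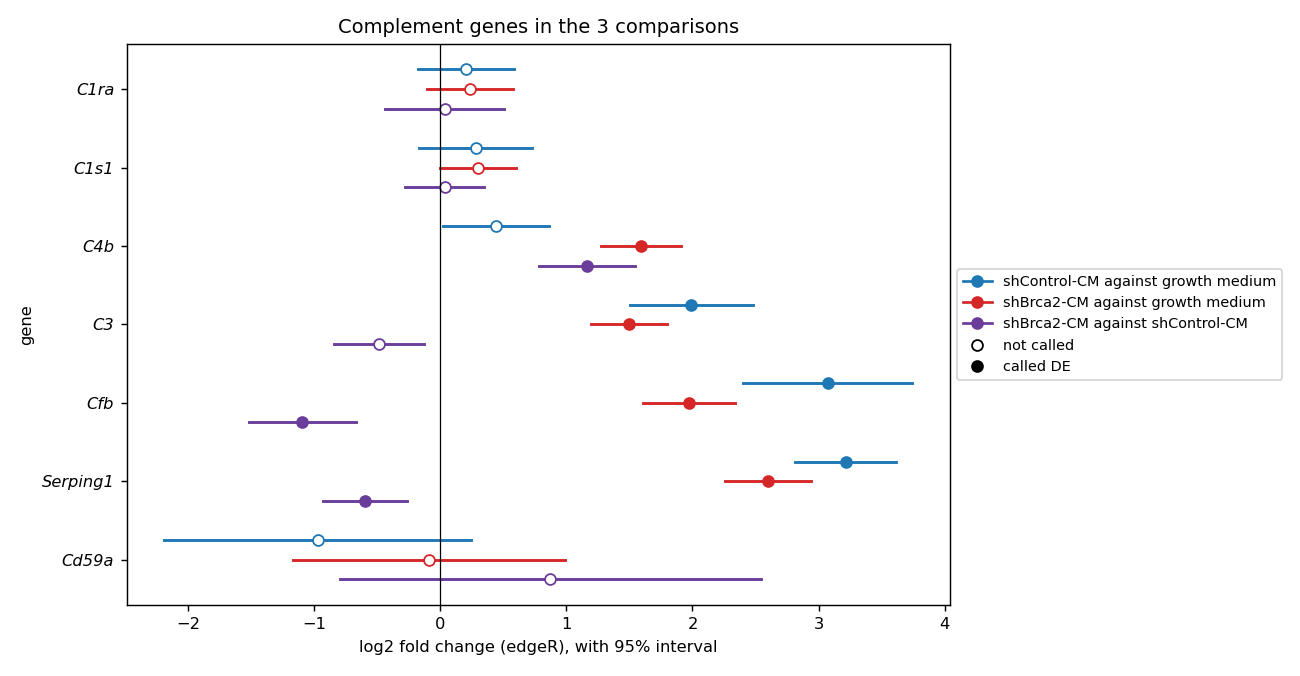
Log2 fold changes from edgeR with their 95% intervals for the 7 genes in the 3 comparisons, filled where the gene was called DE. C3, Cfb and Serping1 are called higher with both conditioned media, C4b is called with shBrca2-CM, and between the conditioned media C4b (1.16) lies opposite to Cfb (-1.09) and Serping1 (-0.60).

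Because C4b and Cfb changed in opposite directions, counts of C4b, C3 and Cfb were also set against each other within each library, where library size cancels. The ratio of C4b to C3 counts was 0.468, 0.455 and 0.514 with shBrca2-CM, 0.161, 0.174 and 0.135 with shControl-CM, and 0.403 and 0.515 in growth medium. All shControl-CM domes were below all others, and the shBrca2-CM domes fell within the range of growth medium. The ratio of C4b to Cfb counts was 1.51, 1.31 and 1.80 with shBrca2-CM, 0.364, 0.369 and 0.269 with shControl-CM, and 2.69 and 1.59 in growth medium. Here too the shControl-CM domes were lowest, and the other media overlapped. With 3 domes against 3 a two-sided exact permutation test cannot go below p = 0.10, and both ratios reached that value between the conditioned media (adjusted p = 0.125 over 5 ratios tested, exact permutation test). The ratios of Serping1 to C1s1 and of Cfb to C3 counts reached it too, so 4 of the 5 ratios did. These ratios were chosen after the values of the single genes were known. The conditioned media did not overlap for C4b or for Cfb and had opposite orders. The ratio of C4b to Cfb therefore had to separate them, and its p-value adds nothing to the single genes. The ratio of C1ra to C1s1 counts was 0.454 ± 0.132 with shBrca2-CM and 0.465 ± 0.036 with shControl-CM (SD, n = 3 each, exact permutation p = 0.9).

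**Figure D3:**
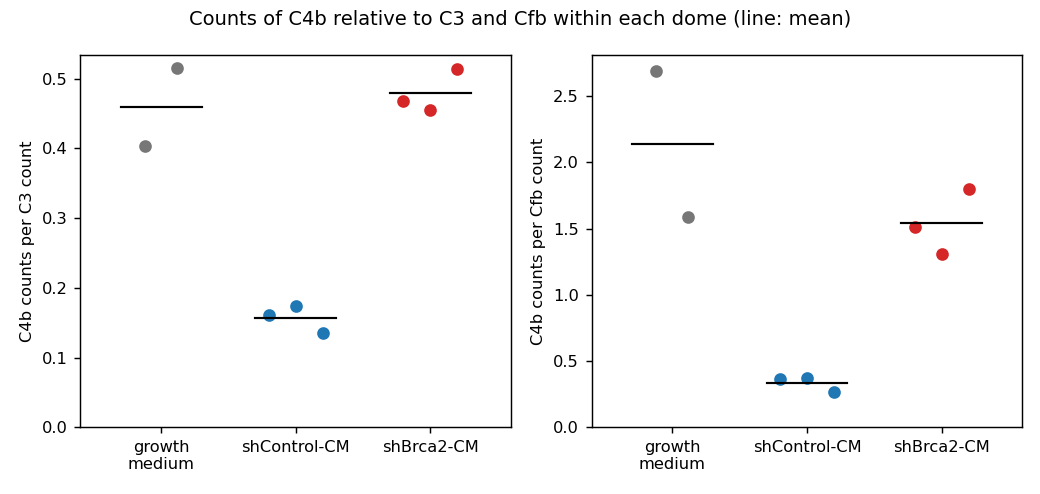
Counts of C4b divided by those of C3 (left) and of Cfb (right) in each dome, with group means as lines, on linear axes from 0. The 3 shControl-CM domes are lowest in both panels (0.135 to 0.174 and 0.269 to 0.369).

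C4b and Cfb lie in the same gene cluster of chromosome 17, the class III region of the major histocompatibility complex, together with C2 and C4a. In GRCm38 coordinates C4b is at 34728139 to 34743902, Cfb at 34856374 to 34862514 (112.5 kb away) and C2 at 34862602 to 34882100, 0.1 kb from Cfb. C3 is on the same chromosome at 57203967 to 57228136, Serping1 and Cd59a are on chromosome 2 (84765360 to 84775444 and 104095753 to 104115410). C2, which encodes the protease paired with C4 and is the closest relative of Cfb, did not have the order of its neighbour. It was at 57.9, 49.8 and 58.6 CPM with shBrca2-CM, 22.4, 29.0 and 38.0 CPM with shControl-CM, against 53.4 and 53.1 CPM in growth medium. Every shControl-CM dome was below every other dome. The log2 fold change of C2 was -0.84 with shControl-CM against growth medium (SE 0.24, edgeR adjusted p = 0.0228), 0.06 with shBrca2-CM (95% interval -0.30 to 0.43, edgeR adjusted p = 0.815) and 0.92 between the conditioned media (SE 0.23, edgeR adjusted p = 0.0696). The last call was lost without shBrca2-CM replicate 1, 2 or 3 (edgeR adjusted p = 0.242, 0.190 and 0.262), without shControl-CM replicate 2 (0.256), with DESeq2's likelihood ratio test (adjusted p = 0.154) and in thinned libraries (edgeR adjusted p = 0.166), and that against growth medium without growth medium replicate 1 or 2 (edgeR adjusted p = 0.168 and 0.143).

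Sequences upstream of the genes are shown for C3, which rose with both conditioned media, beside C1s1 and C1ra, which were not called. Windows of 300 bases, 250 before and 50 after a transcript start, were taken from RefSeq on GRCm38.p6, the assembly known as mm10, and 5 of the 8 genes had one (C3, C1s1, C1ra, Cd55 and Cd59a). Capitals mark matches on either strand to the letters of 6 motifs: TTNNGNAA (C/EBP), GGG and CC with 5 bases between them (NF-kB), TTCNNNGAA (STAT), GAAA and GAAA with 2 bases between them (interferon response), TGANTCA (AP-1), and GAA, TTC and GAA with 2 bases between neighbours (HSF1). Each is printed in the direction of transcription.
C3 (chr17:57228087-57228386, minus strand): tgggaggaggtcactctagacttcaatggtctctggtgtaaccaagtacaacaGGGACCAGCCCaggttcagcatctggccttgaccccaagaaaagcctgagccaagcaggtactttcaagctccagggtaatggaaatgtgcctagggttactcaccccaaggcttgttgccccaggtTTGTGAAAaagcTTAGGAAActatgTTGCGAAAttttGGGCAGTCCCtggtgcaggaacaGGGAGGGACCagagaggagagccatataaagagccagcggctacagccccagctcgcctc
C1s1 (chr6:124542310-124542609, minus strand): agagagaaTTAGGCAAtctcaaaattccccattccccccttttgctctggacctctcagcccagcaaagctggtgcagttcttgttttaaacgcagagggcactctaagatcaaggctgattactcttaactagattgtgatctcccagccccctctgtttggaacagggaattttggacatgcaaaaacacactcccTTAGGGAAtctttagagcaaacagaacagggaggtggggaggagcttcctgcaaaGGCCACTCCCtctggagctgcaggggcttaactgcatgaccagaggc
C1ra (chr6:124512371-124512670, plus strand): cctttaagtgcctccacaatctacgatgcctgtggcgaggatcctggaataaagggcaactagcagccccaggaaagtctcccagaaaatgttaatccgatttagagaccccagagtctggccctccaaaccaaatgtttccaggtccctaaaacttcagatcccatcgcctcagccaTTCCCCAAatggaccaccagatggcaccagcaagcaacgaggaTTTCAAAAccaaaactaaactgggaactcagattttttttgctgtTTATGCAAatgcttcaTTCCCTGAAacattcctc
The C3 window holds 3 matches to TTNNGNAA that begin at -70, -58 and -45 from the transcript start of its window, and NF-kB matches at -197 and -196 (overlapping), -33 and -10. The C1s1 window, the first of 2 given for this gene, is placed on a transcript start that lies within the gene span given above, not at its end, and holds TTNNGNAA at -242 and -52 and an NF-kB match at 4, and the C1ra window holds TTNNGNAA at -72, -29 and 17 and TTCNNNGAA at 33. Such short patterns are common: of 32851 promoter windows of the same length, 40.7% hold TTNNGNAA, 50.8% the NF-kB letters and 8.3% TTCNNNGAA, and the match letters alone do not show binding.

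Of 54 other complement genes listed, 17 were measured and the rest were not analysed here. For shBrca2-CM against shControl-CM 14 of them could be tested, of which 3 were called higher with shBrca2-CM (C2, Masp1 and Clu) and 0 lower. With shControl-CM against growth medium 3 of 17 were higher and 4 lower, where 18.2% of all genes were higher and 18.9% lower, and with shBrca2-CM 3 were higher and 3 lower, where 18.6% and 19.2% of all genes were. Among all genes, 1.58% were higher and 1.55% lower with shBrca2-CM than with shControl-CM. Their median shBrca2-CM to shControl-CM log2 fold change was 0.29, beside 0.03 over all genes. Masp1, a protease of the lectin route, had the order of C2. It was at 78.1, 98.3 and 82.6 CPM with shBrca2-CM, 49.97, 48.3 and 40.1 CPM with shControl-CM, against 79.6 and 87.9 CPM in growth medium, so that the shControl-CM domes were below all others. The log2 fold change of Masp1 was 0.93 between the conditioned media (SE 0.18, edgeR adjusted p = 0.0183, but 0.139 without shBrca2-CM replicate 2), -0.87 with shControl-CM against growth medium (edgeR adjusted p = 0.00639) and 0.05 with shBrca2-CM (edgeR adjusted p = 0.854). Cfp, which encodes properdin, rose by 1.06 with shControl-CM and by 1.04 with shBrca2-CM on the log2 scale (edgeR adjusted p = 0.00317 and 6.56e-06), with a difference of -0.0020 between them (95% interval -0.37 to 0.36). Colec12, a membrane collectin, fell by 0.89 with shControl-CM and by 0.68 with shBrca2-CM on the log2 scale (edgeR adjusted p = 0.0100 and 3.39e-04), the first without a call when growth medium replicate 1 was left out (edgeR adjusted p = 0.128).

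Clu, which encodes clusterin, an extracellular chaperone that also holds back the terminal complex, was the complement gene with the largest difference between the conditioned media. It was at 852, 813 and 1010 CPM with shBrca2-CM, 121, 168 and 197 CPM with shControl-CM, against 29.0 and 29.7 CPM in growth medium. All groups were apart, and shBrca2-CM was highest, as for C4b. C1qbp, a mitochondrial protein that can bind C1q, fell by 1.19 with shControl-CM and by 1.11 with shBrca2-CM on the log2 scale (edgeR adjusted p = 0.00979 and 2.71e-09). Calr, an endoplasmic reticulum chaperone that also binds C1q, was near the fold threshold, with log2 fold changes of -0.45 (edgeR adjusted p = 0.0452, not called) and -0.52 (edgeR adjusted p = 5.86e-04, called). The latter fell under the threshold without growth medium replicate 1 (-0.42, edgeR adjusted p = 0.00838) and in thinned libraries (-0.49, edgeR adjusted p = 0.00200). The remaining calls rested on few counts. C1s2 had 5, 7 and 7 counts with shControl-CM, 2, 0 and 2 with shBrca2-CM, and 6 and 3 in growth medium, and its call with shControl-CM against growth medium (log2 fold change 2.39, edgeR adjusted p = 0.0139) was lost without growth medium replicate 2 (edgeR adjusted p = 0.123). C4a was called higher with shBrca2-CM than in growth medium (log2 fold change 1.41, edgeR adjusted p = 0.0412), a call lost in 8 of 14 alternatives, among them without shBrca2-CM replicate 1 or 3 or growth medium replicate 1 (edgeR adjusted p = 0.141, 0.103 and 0.188) and in DESeq2's likelihood ratio test (adjusted p = 0.137). Of the membrane inhibitors, Cr1l, which encodes the mouse inhibitor Crry, had 7 to 16 counts in conditioned medium and was not called (log2 fold change between the conditioned media -0.05, 95% interval -0.86 to 0.77, edgeR adjusted p = 0.978). Hc, which encodes C5, had 0 to 4 counts in conditioned medium, too few to compare.

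**Figure D4:**
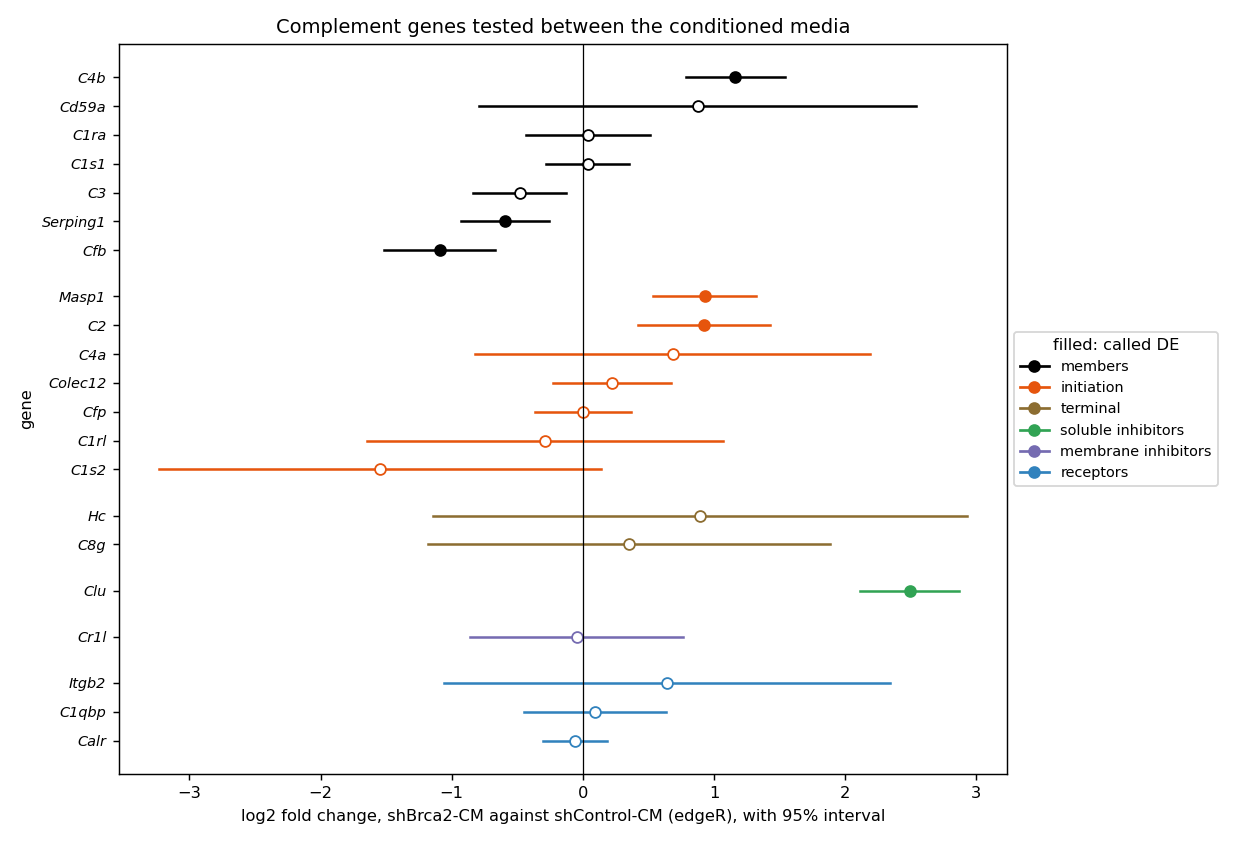
Log2 fold changes between shBrca2-CM and shControl-CM, with 95% intervals, of the 21 complement genes tested, grouped by role and filled where called DE. Among the early components C4b, C2 and Masp1 lie right of 0 (0.92 to 1.16) with a call, and C4a (0.68) and Colec12 (0.22) without one. C1ra and C1s1 lie at 0.04, C1rl (-0.29) and C1s2 (-1.55) lie left of 0 without a call, and Cfb and Serping1 lie left of 0 with one.

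Transcription factors, receptors and feedback genes known to act on complement genes, 14 in all, were all measured. Of these, 2 were called in the comparison of the conditioned media, both lower with shBrca2-CM, where 1.55% of all genes were called lower. Cebpb, which encodes the acute phase factor C/EBP beta, was at 405, 462 and 470 CPM with shBrca2-CM, 659, 652 and 810 CPM with shControl-CM, against 231 and 233 CPM in growth medium. Socs3, a feedback inhibitor of STAT3 signalling, was at 72.3, 77.2 and 96.8 CPM, 152, 145 and 183 CPM, and 38.6 and 41.5 CPM, respectively. Both genes had the order of Cfb and Serping1, with no overlap between groups. Their log2 fold changes between the conditioned media were -0.64 for Cebpb (SE 0.13, edgeR adjusted p = 0.0217) and -0.92 for Socs3 (SE 0.16, edgeR adjusted p = 0.0109). Against growth medium, 5 of the 14 were higher and 2 lower with shControl-CM, where 18.2% of all genes were higher and 18.9% lower, and 7 were higher and 2 lower with shBrca2-CM, where 18.6% and 19.2% of all genes were. Among those called in both comparisons, Cebpb, Socs3, Cebpd and Rela were higher and Irf1 was lower. Rela, the NF-kB subunit p65, had log2 fold changes of 1.47 with shControl-CM and 1.27 with shBrca2-CM (edgeR adjusted p = 2.22e-04 and 2.25e-10). Irf1, a transcription factor of the interferon response, had log2 fold changes of -0.67 and -0.56 (edgeR adjusted p = 0.0100 and 0.00430). Cebpd, another C/EBP factor, was low, at 13.0 to 17.4 CPM with shBrca2-CM, 5.13 to 8.83 CPM with shControl-CM and 1.72 to 2.95 CPM in growth medium; its difference between the conditioned media was not called (log2 fold change 1.16, edgeR adjusted p = 0.169).

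Genes whose log2 CPM followed each complement gene most closely over the 8 libraries were looked up among 6223 genes with a mean of at least 20 CPM, as a description only, since the libraries fall into 3 groups that also differ in depth. For C3 these were Flywch1 and Cd63 (Pearson r = 0.994 and 0.993), for C4b Fgf23 and Pomk (0.991 and 0.982), for Cfb Tnfrsf9 and Pdpn (0.994 and 0.990), and for Serping1 Tgfbr1 and Sphk1 (0.995 and 0.994). For the genes that were not called the values were 0.913 for C1s1 with Prpf3, 0.936 for C1ra with Tmem18, and 0.951 for Cd59a with Fbxo7. Since r depends on the group differences, it is not compared between called and other genes. The second genes were Brpf1 (0.897), Zfp408 (0.926) and Sdhaf1 (0.901).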

How the data were processed

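RNA of PSCs was measured in 8 samples, grouped and numbered by their titles. The authors deposited unnormalised gene counts, 1 column per dome, made by MARS-seq on an Illumina NextSeq; per the labels, bcl2fastq, cutadapt, STAR 2.4.2a, HTSeq, DESeq2 and the mm10 build were used, while the treatment of molecular identifiers and multiply mapped reads is not given in the sources used here. In the table, 1 sample column, named like the growth medium domes, matched no sample given here and was not used, so comparisons with growth medium rest on 2 domes. Counts were analysed here with edgeR 4.0.16 in R 4.3.3 (TMM normalization, a minimum of 10 counts summed over the samples of a fit, two-sided quasi-likelihood test), each pair of groups fitted alone, with Benjamini-Hochberg adjustment over all genes tested. Standard errors were the log2 fold change divided by the root of the F statistic. Variance estimates were shared across genes within each fit, so p-values of different comparisons are not ranked against each other. The study's DESeq2 tests were run as alternatives with DESeq2 1.42.0. The fits were tested on simulated data first. Pairs of domes of 1 group differed by more than sampling noise (chi-square per degree of freedom 1.65 to 8.35). The limit of detection of 3 counts covers counting error only.

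The complement genes, the other lists and the thresholds were chosen with earlier results of these data known. Named were all members measured, every other listed complement gene called in at least 1 comparison, the listed regulators called between the conditioned media or in both comparisons with growth medium, and for each member the 2 genes most like it; Cr1l and Hc were added after their values were seen. The values of 1 listed regulator are not reported here. Gene positions are those of RefSeq on GRCm38.p6; transcript ends and overlaps are from GENCODE vM39 on GRCm39. Alternatives were DESeq2's likelihood ratio and Wald tests, DESeq2's size factors or total counts, no filter or filterByExpr, stricter thresholds, a joint fit of the 3 groups, a block for the replicate number, thinning of all libraries to the smallest total, and each library left out.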

Additional observations from a re-analysis of the deposited data

How the results depend on the processing

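The calls of C3, Cfb and Serping1 with both conditioned media against growth medium, of C4b with shBrca2-CM against growth medium, and of C4b and Cfb between the conditioned media were kept under every alternative run. Of all genes, 345 were called between the conditioned media, 4488 with shControl-CM and 4555 with shBrca2-CM against growth medium. At an adjusted p-value under 0.05 and a log2 fold change over 1 these were 130, 2375 and 2185, and in thinned libraries 2923 with shControl-CM against growth medium. With each library left out they ranged from 128 to 976, from 1901 to 5157 and from 3903 to 4510. Between the conditioned media the count was 175, 128 and 160 without shBrca2-CM replicate 1, 2 and 3, and 976 and 169 without shControl-CM replicate 1 and 2; with shControl-CM against growth medium it was 1901 and 2269 without growth medium replicate 1 and 2, where the lone dome is assumed to vary like the other group. Total counts in place of TMM moved the median log2 fold change of all genes from 0.03 to 0.14 between the conditioned media and from -0.10 to -0.21 with shControl-CM against growth medium.

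Directions that turned were all of differences that were not called. For shBrca2-CM against shControl-CM, Cfp was at 0.11 and Calr at 0.054 with total counts, and Cfp at 0.0099 with filterByExpr, 0.015 in thinned libraries and 0.00025 with the replicate block, where C1ra was at -0.013. With each library left out, Cfp ranged from -0.077 to 0.076, C1ra from -0.16 to 0.26, C1s1 from -0.076 to 0.13 and C1qbp from -0.20 to 0.37. With shControl-CM against growth medium, C4a ranged from -0.38 (without shControl-CM replicate 2) to 1.18. With shBrca2-CM against growth medium, C1ra was at -0.00020 with the replicate block and Cd59a at 0.098 in thinned libraries, while Cd59a ranged from -0.56 to 0.49 and Masp1 from -0.047 to 0.13 with each library left out. The causes were not tested.

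The replicate numbers carry no stated meaning, and deviations of same-numbered domes from their group means correlated at -0.066, 0.028 and 0.16. With the replicate block 311 genes were called between the conditioned media, 4512 with shControl-CM and 3850 with shBrca2-CM against growth medium, and 3, 3 and 4 of the 7 complement genes, as many as without it. Depth limits Cd59a and the other genes of few counts most.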
